A study of Homo sapiens with 4 samples.

Results

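Long RNAs that carry small RNAs inside them, and a few of the most abundant long noncoding RNAs (lncRNAs), were followed in 2 breast cancer cell lines with and without hnRNPM, a nuclear protein that binds RNA and takes part in splicing. The genes were chosen by name: all SNHG genes with a number (small nucleolar RNA host genes), all genes named MIR followed by a microRNA name and HG (microRNA host genes), and 13 names given one by one. Of those 13 names, 10 were found in the table, and MEG3, CYTOR and NORAD were not analysed here under those names. CYTOR and NORAD are the later names of LINC00152 and LINC00657 in GENCODE release 29, and both genes were found by the older names. The choice gave 55 of 20329 genes: 24 snoRNA host genes (the SNHG genes with GAS5, ZFAS1 and DANCR), 24 miRNA host genes and 7 other lncRNAs (NEAT1, MALAT1, TUG1, PVT1, H19, LINC00152 and LINC00657). A mean of at least 1 FPKM (fragments per kilobase of transcript, scaled to the mapped fragments of the library, so that genes of different length can be set side by side) was reached by 40 of them, and 15 lay below it.

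The cells were BM1 (1833) and LM2 (4175), metastatic derivatives (of bone and of lung) of the triple-negative breast cancer line MDA-MB-231. Control cells of each line stably expressed a non-specific shRNA from a lentivirus, and knockdown cells stably expressed an shRNA against hnRNPM, so all 4 groups carried a lentiviral shRNA; knockdown cells are called depleted below. Each of the 4 groups was 1 library of polyadenylated RNA, so the replicates of the knockdown are the 2 lines, and within a line there is none. Whether separate infections or more than 1 shRNA were used against hnRNPM was not stated in the labels.

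Small nucleolar RNAs (snoRNAs) guide the chemical modification of ribosomal RNA and are mostly cut out of introns, so a host gene gives a spliced RNA and, from its introns, the snoRNAs. Many host RNAs start with a C followed by pyrimidines, the terminal oligopyrimidine start that they share with messenger RNAs of the translation machinery, and many are short-lived because ribosomes translate them and nonsense-mediated decay removes them. MicroRNA host RNAs are cut by Drosha and Dicer to give mature microRNAs, which pair through their seed (bases 2 to 8) with target messenger RNAs. NEAT1 builds paraspeckles and MALAT1 lies in nuclear speckles, 2 kinds of nuclear bodies rich in RNA-binding proteins, whereas LINC00657 is mostly cytoplasmic.

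By the GENCODE 29 annotation, 23 of 24 snoRNA host genes contained 134 snoRNA or scaRNA genes on their strand, and 22 of 23 matched miRNA host genes contained 40 miRNA genes. SNHG14 alone held 84 of the 134. The host without a match was GAS5, although SNORD78 lies inside it by the deposited positions, so this match missed at least that snoRNA. Of the mature miRNAs in RefSeq (GRCh38.p14), 73 lay inside 26 of the genes studied. The sequences below are those of the hosts that the results turn on, with the seed in capitals; they are shown because several hosts described below carry miRNAs with the same seed. The miR-22 strands come from MIR22HG and the miR-3681 strands from MIR3681HG, the 2 miRNA host genes that passed the test for the knockdown, in opposite directions.
miR-22-3p: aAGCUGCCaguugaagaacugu
miR-22-5p: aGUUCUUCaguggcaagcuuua
miR-3681-5p: uAGUGGAUgaugcacucugugc
miR-3681-3p: aCACAGUGcuucauccacuacu
miR-221-3p: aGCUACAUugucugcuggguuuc
miR-222-3p: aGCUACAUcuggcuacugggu
miR-195-5p: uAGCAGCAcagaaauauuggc
miR-497-5p: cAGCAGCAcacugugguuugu
miR-503-5p: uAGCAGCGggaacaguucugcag
let-7a-5p: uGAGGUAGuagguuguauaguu
let-7b-5p: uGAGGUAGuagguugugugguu
miR-4458: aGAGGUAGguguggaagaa
miR-4435: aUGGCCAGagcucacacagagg

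The pair miR-221-3p and miR-222-3p in MIR222HG shared the seed GCUACAU. The pair miR-195-5p and miR-497-5p in MIR497HG shared AGCAGCA, and miR-503-5p in MIR503HG carried AGCAGCG in the same place. The let-7 seed GAGGUAG was found in MIRLET7BHG (let-7a-5p and let-7b-5p) and in MIR4458HG (miR-4458), and also in MIR99AHG and MIR4500HG, which lay below the mean of 1 FPKM. The sequence of miR-4435 was present in both LINC00152 and MIR4435-2HG, 2 genes on chromosome 2 with near-identical transcripts. The libraries hold long polyadenylated RNA, so the values below are levels of the host RNAs and not of the mature miRNAs or snoRNAs.

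Depth, read from the steps between low FPKM values, was about 22829371 to 41502974 fragments per library and was lower in the knockdown library of each line. The targeted gene HNRNPM stood at 171 FPKM in control and 28.4 in depleted BM1 cells, and 132 in control and 20.3 in depleted LM2 cells, a difference on the log2 scale of -2.59 over both lines (limma, Benjamini-Hochberg adjusted p = 0.00318). Mitochondrial genes took 8.80% to 9.31% of the FPKM sum in the controls and 11.8% to 12.8% in the knockdowns. Of the line markers, VIM, CD44, KRT8 and KRT18 were at 129 FPKM or more in every library, ERBB2 at 13.5 to 21.9 and EPCAM at 2.999 to 4.59. ESR1 and PGR have no entry under those names and were not analysed here. Of 4 leukocyte markers only CD14 (1.47 to 7.09 FPKM) and of 3 endothelial markers only VWF (at most 0.163 FPKM) had an entry. In bulk RNA, fewer cells of a kind and less RNA per cell cannot be told apart.

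The summed level of the 55 genes was almost the same in the 4 libraries, at 1275, 1265, 1295 and 1206 FPKM in the control and knockdown of BM1 and then of LM2. The classes did not share this. The 24 snoRNA host genes summed to 915.6 FPKM in the BM1 control and 607.8 in the BM1 knockdown, and to 809.4 and 533.9 in LM2. The 24 miRNA host genes summed to 135.6 and 225.5 FPKM in BM1 and to 184.6 and 266.1 in LM2, and the 7 other lncRNAs to 224.2 and 431.5 in BM1 and to 301.1 and 406.5 in LM2. Sums follow the most abundant genes, which were LINC00152, SNHG5, MIR4435-2HG, ZFAS1 and GAS5.

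**Figure D1:**
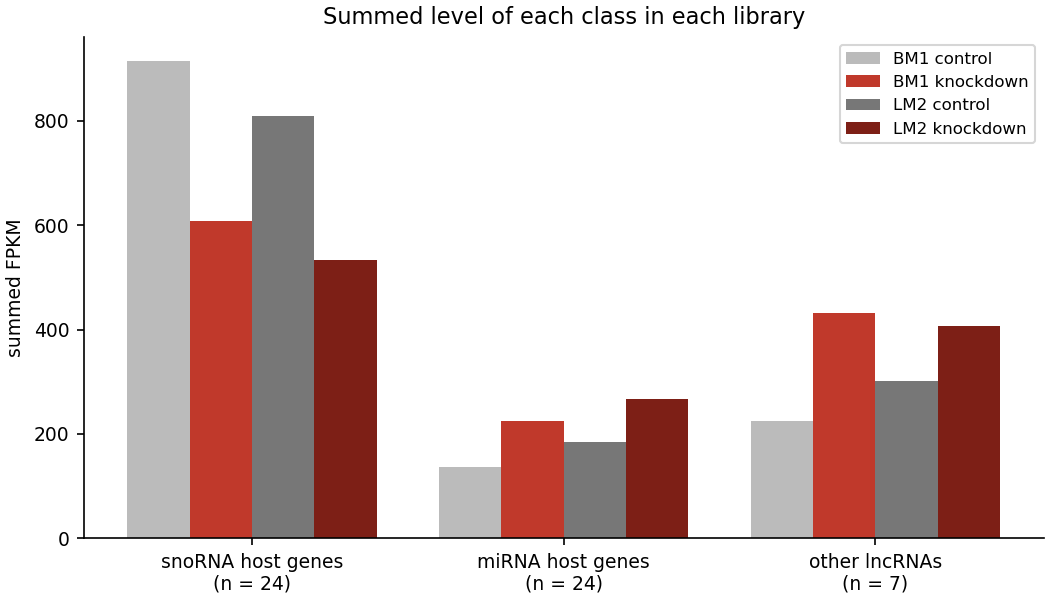
Summed FPKM (vertical axis, from 0) of the 24 snoRNA host genes, 24 miRNA host genes and 7 other lncRNAs, with 1 bar for each of the 4 libraries. The snoRNA host bars are lower in the knockdown of both lines (915.6 to 607.8 in BM1, 809.4 to 533.9 in LM2), and the bars of the other classes are higher.

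The first question was which of these genes moved when hnRNPM was depleted. Of 40 genes tested, 6 changed over both lines (15%), against 5.47% of all 13928 genes tested (2.71% higher and 2.76% lower). NEAT1, MIR22HG and MALAT1 rose, and SNHG25, MIR3681HG and DANCR fell, each in the same direction in both lines. Without adjustment 16 of 40 had a p under 0.05, against 24.9% of all genes. With all 4 libraries but no term for the line, 0 of 40 passed. With any 1 library left out the line term cannot be kept in a test, and 0 of 40 passed in those fits too, so they do not show what a single library adds. The count was also 0 with a pseudocount of 0.1, quantile normalization, equal library sums without mitochondrial genes, no filter on low values, or the trend over GC content and transcript length removed, while the directions of the 6 genes did not turn.

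**Figure D2:**
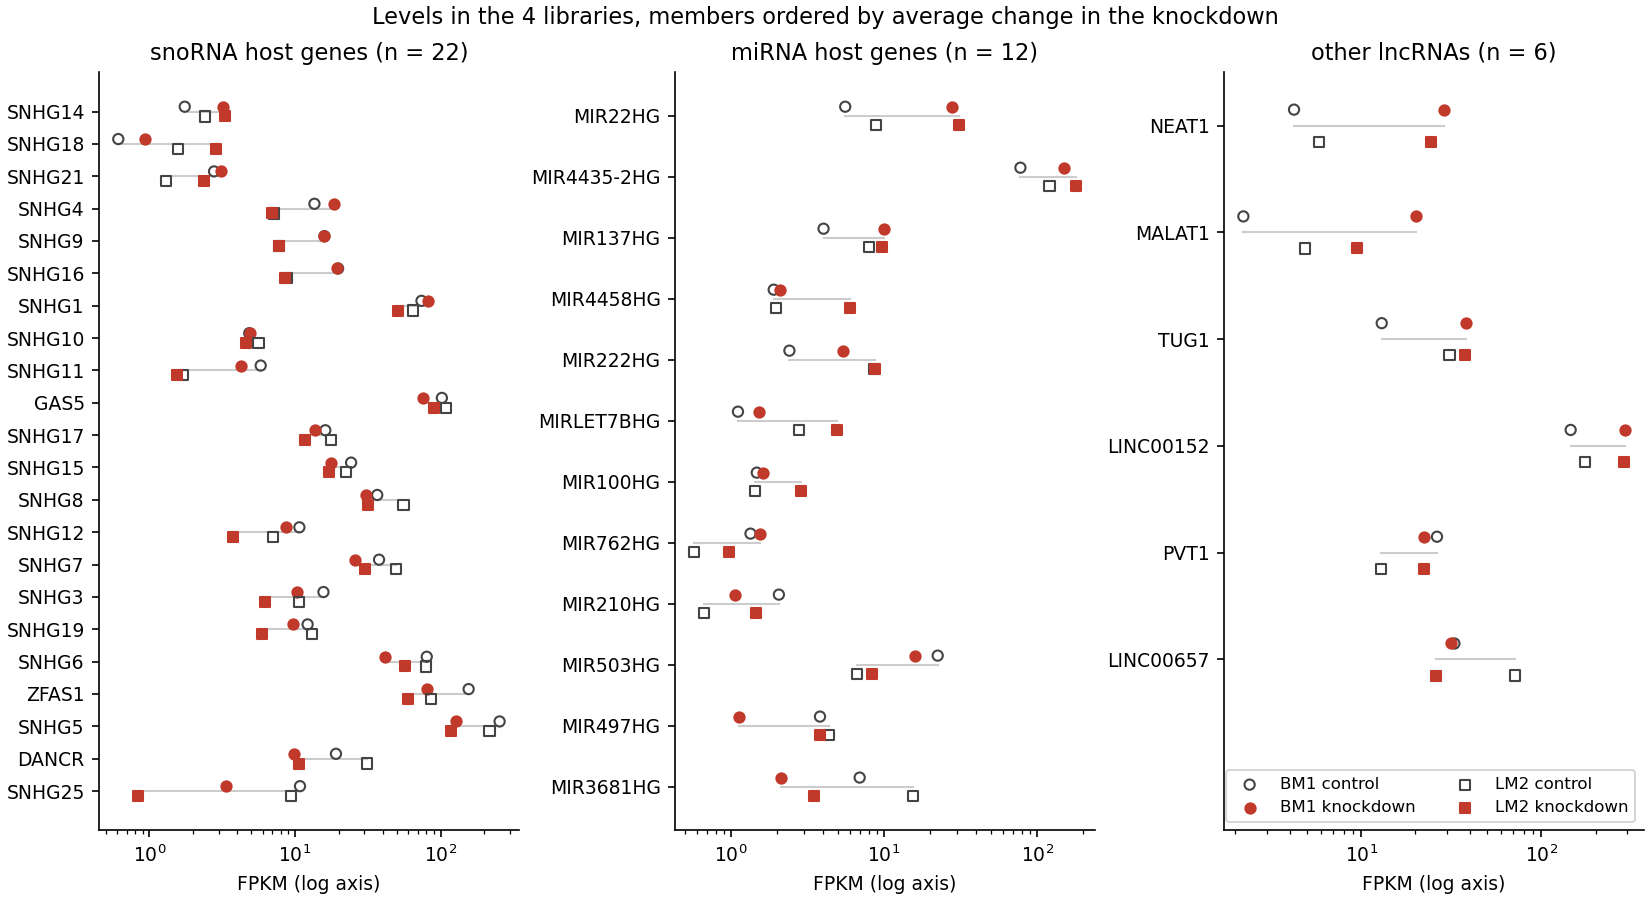
FPKM (horizontal axis, log scale) of the 40 genes tested in each of the 4 libraries, by class, ordered from the largest average decrease (bottom) to the largest increase (top). Circles are BM1, squares are LM2, open symbols are controls and filled symbols knockdowns; grey lines span the 4 values. In 12 of 22 snoRNA host genes both filled symbols lie left of both open ones.

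Among snoRNA host genes the prevailing difference was downward. Of 22 tested, 16 were lower in the knockdown of both lines (72.7%, against 36.2% of all genes), 3 were higher in both and 3 went in opposite directions. In 12 of the 22 both knockdown libraries lay below both controls (54.5%, against 22.6% of all genes), and in 1, SNHG14, both lay above (4.55%, against 21.8%). The median difference on the log2(FPKM + 1) scale over both lines was -0.40 (-0.29 in BM1 and -0.41 in LM2), whereas the medians of all genes were -0.0083, 0.0047 and -0.04. The size in BM1 depended on the processing: with the trend over GC content and transcript length removed, the median of the snoRNA hosts over both lines was -0.28 (-0.01 in BM1 and -0.42 in LM2), and with equal library sums without mitochondrial genes it was -0.18 in BM1. Only 2 of the 22 passed the test one by one, both lower (9.09%, against 2.76% of all genes).

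SNHG25, the host of SNORD104 (GRCh37, the build of all gene positions given here, chr17:62223330-62223836, plus strand), had the largest decrease. It stood at 10.8 FPKM in control and 3.36 in depleted BM1 cells, and 9.39 in control and 0.841 in depleted LM2 cells. Both knockdown libraries were far below both controls, at 31.03% of the control level in BM1 and 8.96% in LM2, and the difference was -1.97 ± 0.31 (log2, SE; limma adjusted p = 0.0145). SNHG25 is short, with a longest transcript of 278 bases, and at this length and depth the values correspond to about 94, 21, 108 and 6 fragments. The change in LM2 therefore rests on few fragments.

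DANCR (chr4:53578571-53586518, plus strand) is a lncRNA known from work on stem cell differentiation and hosts SNORA26. Its level was 19.1 FPKM in control and 9.82 in depleted BM1 cells, and 31.1 in control and 10.6 in depleted LM2 cells. The knockdown libraries were near each other at about 10 FPKM although the control of LM2 was well above that of BM1, and the difference was -1.18 ± 0.27 (log2, SE; limma adjusted p = 0.0423). A gene on the opposite strand that overlaps DANCR was at most at 0.213 FPKM.

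SNHG5, host of box C/D snoRNAs and the most abundant of the class, was at 254 FPKM in control and 128 in depleted BM1 cells, and 217 in control and 119 in depleted LM2 cells. ZFAS1, which hosts SNORD12 genes and overlaps the start of ZNFX1 on the other strand, was at 156 FPKM in control and 80.2 in depleted BM1 cells, and 86.2 in control and 59.7 in depleted LM2 cells. SNHG6 was at 80.3 FPKM in control and 41.4 in depleted BM1 cells, and 79.5 in control and 57.4 in depleted LM2 cells. In all 3 genes both knockdown libraries were below both controls, and none passed the test, with limma adjusted p-values of 0.0686, 0.13 and 0.148 for differences of -0.93, -0.74 and -0.701 (log2).

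A smaller difference was seen in GAS5, the best studied host, known for its many snoRNAs and for binding the glucocorticoid receptor: 102 FPKM in control and 75.5 in depleted BM1 cells, and 109 in control and 90.3 in depleted LM2 cells, a difference of -0.35 ± 0.25 (log2, SE; limma adjusted p = 0.427). SNHG19, host of SNORD60, was at 12.2 FPKM in control and 9.71 in depleted BM1 cells, and 13.1 in control and 5.95 in depleted LM2 cells, so it was at least 2-fold lower in LM2 (-1.02) and not in BM1 (-0.303). SNHG12 was lower in the knockdown of both lines, at 10.7 FPKM in control and 8.62 in depleted BM1 cells, and 7.04 in control and 3.77 in depleted LM2 cells, but the BM1 knockdown stayed above the LM2 control. Among the rest, SNHG3, SNHG7, SNHG8, SNHG15 and SNHG17 also had both knockdowns below both controls, with differences over both lines from -0.63 to -0.39.

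A few host genes stood apart from this direction. SNHG9 and SNHG16 differed by no more than 0.04 (log2) between knockdown and control in either line. SNHG14, the long host transcript of the imprinted region of chromosome 15, SNHG18 and SNHG21 were higher in the knockdown of both lines, at differences of 0.47, 0.43 and 0.33 over both lines, and none of them passed the test (limma adjusted p from 0.289 to 0.468). SNHG18 was at 0.612 FPKM in control and 0.929 in depleted BM1 cells, and 1.57 in control and 2.88 in depleted LM2 cells. SNHG4 was at 13.6 FPKM in control and 18.5 in depleted BM1 cells, and 7.13 in control and 6.998 in depleted LM2 cells and overlaps MATR3 on the same strand, so its reads may be shared with that gene.

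Because many host RNAs begin with an oligopyrimidine run, the first bases of their transcripts were read from RefSeq promoters (GRCh38.p14). Each line below shows 10 bases before the annotated start and the first 20 bases from it, and capitals mark a C followed by at least 4 pyrimidines (C or T) that begins within 3 bases of the start, on the transcript's strand. The first 6 hold such a run, and the last 3 do not. They are examples: SNHG4, SNHG17 and SNHG18 also hold a run, and other hosts without it are not shown.
SNHG5: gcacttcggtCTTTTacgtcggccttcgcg
ZFAS1: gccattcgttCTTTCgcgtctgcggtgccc
DANCR: tgcgcgccccgCCCTTgcccagagtcttcc
SNHG19: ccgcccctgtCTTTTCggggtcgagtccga
SNHG12: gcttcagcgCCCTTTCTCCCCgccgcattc
SNHG7: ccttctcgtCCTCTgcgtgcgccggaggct
SNHG1: gagattcgttctcatttttctactgctcgt
SNHG16: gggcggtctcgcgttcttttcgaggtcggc
SNHG11: gctctaggctgcagccgcgcccccagccgt

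On GRCh38.p14 these windows lie at chr6:85678714-85678743 (minus strand), chr20:49278632-49278661 (plus), chr4:52712384-52712413 (plus), chr16:2155339-2155368 (minus), chr1:28581854-28581883 (minus), chr9:136728165-136728194 (minus), chr11:62855866-62855895 (minus), chr17:76557754-76557783 (plus) and chr20:38446644-38446673 (plus). Of 20 snoRNA host genes with a promoter in the table, 9 (45%) had such a start, against 13.0% of 35116 promoters, 6 of 23 miRNA host genes and 0 of 5 other lncRNAs. In a list of protein genes known for this kind of start, 10 of 12 with a promoter had one. A gene was counted if any of its promoters held the run, and such a promoter was then the one shown. The 13.0% is a share of single promoters, so it is not the same measure as the counts of genes. The 9 tested host genes with the run had a median knockdown difference of -0.61 (log2) over both lines, and the 9 tested without it -0.11. This split was made after the values were seen and was not tested. It was not uniform: SNHG4 and SNHG18 hold such a run and were not lower over both lines. SNHG3 and SNHG8 hold none within 3 bases of their annotated starts and had differences of -0.63 and -0.51. GAS5 and SNHG1 were also placed without the run by this rule. The counts and medians rest on the annotated starts, which were not checked against the starts used in these cells. A host whose RNA starts elsewhere may be in the wrong group.

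Protein genes with that start were examined in the same way. Of 19 tested (translation factors, TPT1, NPM1 and others), 0 passed the test for the knockdown in either direction (limma; 3 had an unadjusted p under 0.05), and their median was -0.07 over both lines. EIF3E, a subunit of initiation factor 3, was at 143 FPKM in control and 391 in depleted BM1 cells, and 151 in control and 251 in depleted LM2 cells (difference 1.08, limma adjusted p = 0.0592). TPT1 was at 264 FPKM in control and 126 in depleted BM1 cells, and 125 in control and 86.7 in depleted LM2 cells (difference -0.79, limma adjusted p = 0.119). The proteins that bind snoRNAs and their assembly factors gave 0 of 20 past the test (limma; 2 had an unadjusted p under 0.05), with a median of -0.17. In that list ZNHIT6, an assembly factor, differed by 0.87 and RUVBL1, a helicase subunit, by -0.83 (limma adjusted p = 0.0846 and 0.0979).

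Factors of nonsense-mediated decay, the pathway that degrades many host RNAs, gave 0 of 17 past the test for the knockdown (limma; 3 had an unadjusted p under 0.05), with a median of 0.19. UPF2, a core factor, was at 2.54 FPKM in control and 10.99 in depleted BM1 cells, and 7.36 in control and 9.79 in depleted LM2 cells (difference 1.06, limma adjusted p = 0.107), and the endonuclease SMG6 at 18.9 FPKM in control and 8.21 in depleted BM1 cells, and 12.4 in control and 7.29 in depleted LM2 cells (difference -0.904, limma adjusted p = 0.0802). UPF2 was therefore higher and SMG6 lower in the knockdown of both lines, without passing the test.

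Most of the tested miRNA host genes had higher levels in the knockdown, with few past the test. Of 12 tested, 8 were higher in the knockdown of both lines (66.7%, against 33% of all genes), 2 were lower in both and 2 went in opposite directions. In 5 of the 12 both knockdown libraries lay above both controls (41.7%, against 21.8% of all genes). In 1 both lay below (8.33%, against 22.6%). The median difference of the class over both lines was 0.41 (0.11 in BM1 and 0.44 in LM2). In each direction 1 gene passed the test (8.33%), against 2.71% of all genes higher and 2.76% lower. The size of the median over both lines depended on the processing, at 0.19 with no filter on low values, and at 0.13 without the LM2 knockdown and 0.66 without the BM1 knockdown (fits without a term for the line). In BM1 it ran from 0.03 with quantile normalization to 0.91 over the genes with a mean of at least 5 FPKM, and in LM2 it was 0.25 with no filter.

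MIR22HG, the host of miR-22 (chr17:1614787-1620468, minus strand), rose the most of the class. It was at 5.58 FPKM in control and 27.6 in depleted BM1 cells, and 8.9 in control and 30.8 in depleted LM2 cells, a 4.95-fold difference in BM1 and 3.46-fold in LM2 on the FPKM scale. The knockdown libraries were close to each other and well above both controls (log2 difference 1.902 ± 0.26 SE, limma adjusted p = 0.0107). WDR81, which overlaps it on the opposite strand, was at 4.66 FPKM in control and 3.76 in depleted BM1 cells, and 3.98 in control and 2.78 in depleted LM2 cells, lower in the knockdown of both lines. Whether strand was used in the authors' quantification was not stated.

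MIR3681HG (chr2:11988748-12718474, plus strand), the host of miR-3681, went the other way. It was at 6.93 FPKM in control and 2.12 in depleted BM1 cells, and 15.4 in control and 3.5 in depleted LM2 cells, and both knockdown libraries were below both controls (log2 difference -1.61 ± 0.27 SE, limma adjusted p = 0.0168). In LM2 the control was higher than in BM1 and the decrease larger (-1.87 against -1.35), so that the knockdown libraries ended nearer to each other than the controls were.

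Hosts of miRNAs with the seeds shown above did not share a direction. MIR222HG, the host of miR-221 and miR-222, was at 2.41 FPKM in control and 5.37 in depleted BM1 cells, and 8.55 in control and 8.76 in depleted LM2 cells, so its difference was in BM1 (0.901) and close to none in LM2 (0.03). MIR497HG was at 3.82 FPKM in control and 1.13 in depleted BM1 cells, and 4.35 in control and 3.84 in depleted LM2 cells, at least 2-fold lower in BM1 (-1.18) and -0.15 in LM2. MIR503HG, the host of miR-503, was at 22.4 FPKM in control and 15.9 in depleted BM1 cells, and 6.66 in control and 8.39 in depleted LM2 cells, lower after depletion in BM1 and higher in LM2.

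The 2 tested hosts in which the let-7 seed was found were both higher in the knockdown, though neither passed the test. MIRLET7BHG was at 1.11 FPKM in control and 1.52 in depleted BM1 cells, and 2.8 in control and 4.96 in depleted LM2 cells (difference 0.45, limma adjusted p = 0.32). MIR4458HG was at 1.904 FPKM in control and 2.098 in depleted BM1 cells, and 1.96 in control and 6 in depleted LM2 cells, so the difference lay almost wholly in LM2 (1.24, against 0.09 in BM1). MIR137HG, host of the neuronal miR-137, was at 4.03 FPKM in control and 9.95 in depleted BM1 cells, and 7.93 in control and 9.73 in depleted LM2 cells and was at least 2-fold higher in BM1 only (1.12, against 0.26 in LM2). MIR100HG was at 1.48 FPKM in control and 1.63 in depleted BM1 cells, and 1.44 in control and 2.85 in depleted LM2 cells. Both knockdowns lay above both controls, but the difference was mostly in LM2 (0.66, against 0.09 in BM1). MIR210HG and MIR762HG were at 0.577 to 2.06 FPKM in all libraries and did not pass.

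The genes that process miRNAs gave 1 of 15 past the test, where 5.47% of all genes passed. DICER1, the enzyme that cuts precursor miRNAs, rose, at 6.82 FPKM in control and 35.5 in depleted BM1 cells, and 14.5 in control and 31.7 in depleted LM2 cells (log2 difference 1.65 ± 0.32 SE, limma adjusted p = 0.0259). DROSHA, which makes the first cut inside the host RNA, was between 20.1 and 23.8 FPKM in all 4 libraries. TNRC6A, a partner of Argonaute proteins, differed by 0.86 and AGO2 by -0.81 (limma adjusted p = 0.112 and 0.125). The median of the list was 0.16, and DICER1 did not pass without a term for the line, with all 4 libraries or with any 1 left out.

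Of the 6 other lncRNAs tested, 4 had both knockdown libraries above both controls (NEAT1, MALAT1, TUG1 and LINC00152; 66.7%, against 21.8% of all genes). NEAT1 and MALAT1 passed the test (33.3%, against 2.71% of all genes higher). NEAT1 (chr11:65190245-65213011, plus strand), the scaffold of paraspeckles, was at 4.23 FPKM in control and 28.8 in depleted BM1 cells, and 5.81 in control and 24.2 in depleted LM2 cells, a 6.81-fold difference in BM1 and 4.18-fold in LM2 on the FPKM scale. This was the largest average increase among the 40 genes (log2 difference 2.201 ± 0.27 SE, limma adjusted p = 0.00759). MALAT1 (chr11:65265233-65273987, plus strand) begins 52221 bases after the end of NEAT1 on the same strand. It was at 2.22 FPKM in control and 20.1 in depleted BM1 cells, and 4.89 in control and 9.53 in depleted LM2 cells, a 9.08-fold difference in BM1 and 1.95-fold in LM2.

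The increase of MALAT1 was thus much larger in BM1, where its control was lowest, and the test was near its threshold (log2 difference 1.78 ± 0.41 SE, limma adjusted p = 0.0423). For NEAT1 the lines differed less (2.51 in BM1 and 1.89 in LM2). MALAT1 ends in a triple helix in place of a poly(A) tail, and one form of NEAT1 ends in the same way, and the libraries were selected for poly(A). RNAs without a long poly(A) tail were therefore measured beside them. RPPH1, RN7SK, RN7SL1 and RN7SL2, 4 of 5 such RNAs that had an entry, summed to 33.6 FPKM in control and 15.7 in depleted BM1 cells, and to 56.2 in control and 15.4 in depleted LM2 cells. They were lower in the knockdowns, where NEAT1 and MALAT1 were higher. RN7SL1 and RN7SL2 fell (log2 differences -1.55 and -1.23, limma adjusted p = 0.0214 and 0.0404). Their part in the result was not tested.

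Of the genes of paraspeckle and nuclear speckle proteins, 0 of 21 passed the test (limma; 1 had an unadjusted p under 0.05), and the median was -0.11. SON, a core speckle protein, was at 34.4 FPKM in control and 63.5 in depleted BM1 cells, and 51.2 in control and 70.1 in depleted LM2 cells (difference 0.66, limma adjusted p = 0.166), and PNN at 15.8 FPKM in control and 39.9 in depleted BM1 cells, and 30.2 in control and 30.3 in depleted LM2 cells (difference 0.64, limma adjusted p = 0.27).

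LINC00152 and MIR4435-2HG were among the most abundant genes and were higher in the knockdown of both lines. LINC00152 was at 145 FPKM in control and 290.2 in depleted BM1 cells, and 175 in control and 287 in depleted LM2 cells, and MIR4435-2HG at 77.7 FPKM in control and 149 in depleted BM1 cells, and 120.2 in control and 178 in depleted LM2 cells. In both genes both knockdowns lay above both controls, with differences of 0.85 and 0.75 (log2; limma adjusted p = 0.0889 and 0.124). Their transcripts are near-identical copies: the longest match between them ran over 2254 bases at 99.25% identity, 37 of 38 LINC00152 transcripts and 22 of 25 MIR4435-2HG transcripts matched the other gene, and both contain the miR-4435 sequence shown above. The division of reads between the 2 genes is therefore uncertain.

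TUG1 and LINC00657 differed from their controls unequally in the lines. TUG1, a lncRNA found in both nucleus and cytoplasm, was at 12.99 FPKM in control and 38.3 in depleted BM1 cells, and 30.9 in control and 37.5 in depleted LM2 cells. Only the BM1 control was low. RP3-430N8.10, which overlaps TUG1 on the opposite strand, was at 14.5, 29.6, 35.1 and 39.0 FPKM in the same order, and reads of the 2 genes cannot be told apart if strand was not used. For TUG1 the log2 difference was 1.49 in BM1 and 0.27 in LM2. LINC00657, known as NORAD, was at 32.9 FPKM in control and 31.6 in depleted BM1 cells, and 71.6 in control and 26.1 in depleted LM2 cells. Here only the LM2 control was high, and the difference was -0.06 in BM1 and -1.42 in LM2. Neither gene passed the test over the 2 lines (limma adjusted p = 0.142 and 0.221). A difference between the lines' responses cannot be tested with 4 libraries.

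A list of genes known from work on LINC00657, with a few imprinted genes, gave 2 of 7 past the test, where 5.47% of all genes passed. SAMD9 rose, at 1.57 FPKM in control and 6.19 in depleted BM1 cells, and 3.24 in control and 8.41 in depleted LM2 cells. SAMD9L also rose, at 0.6797 FPKM in control and 3.798 in depleted BM1 cells, and 1.87 in control and 6.18 in depleted LM2 cells (log2 differences of SAMD9 and SAMD9L 1.32 and 1.42, limma adjusted p = 0.0268 and 0.0208). Both are also known as genes induced by interferon. PUM2 was at 18.1 FPKM in control and 38.6 in depleted BM1 cells, and 23.02 in control and 31.6 in depleted LM2 cells (difference 0.75, limma adjusted p = 0.138), and PEG10 differed by 0.93 (limma adjusted p = 0.12). The median over the 7 was 0.75, and none passed without a term for the line, with all 4 libraries or with any 1 left out.

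PVT1, a lncRNA beside MYC, was at 26.3 FPKM in control and 22.3 in depleted BM1 cells, and 12.9 in control and 22.2 in depleted LM2 cells. The knockdown libraries were nearly equal, and the direction came from the controls, so PVT1 was lower in the knockdown of BM1 (-0.23) and higher in that of LM2 (0.74). H19, the imprinted lncRNA of chromosome 11, was at 0.0271 FPKM in control and 0.1498 in depleted BM1 cells, and at 0.222 and 0.314 in LM2, and was not tested.

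**Figure D3:**
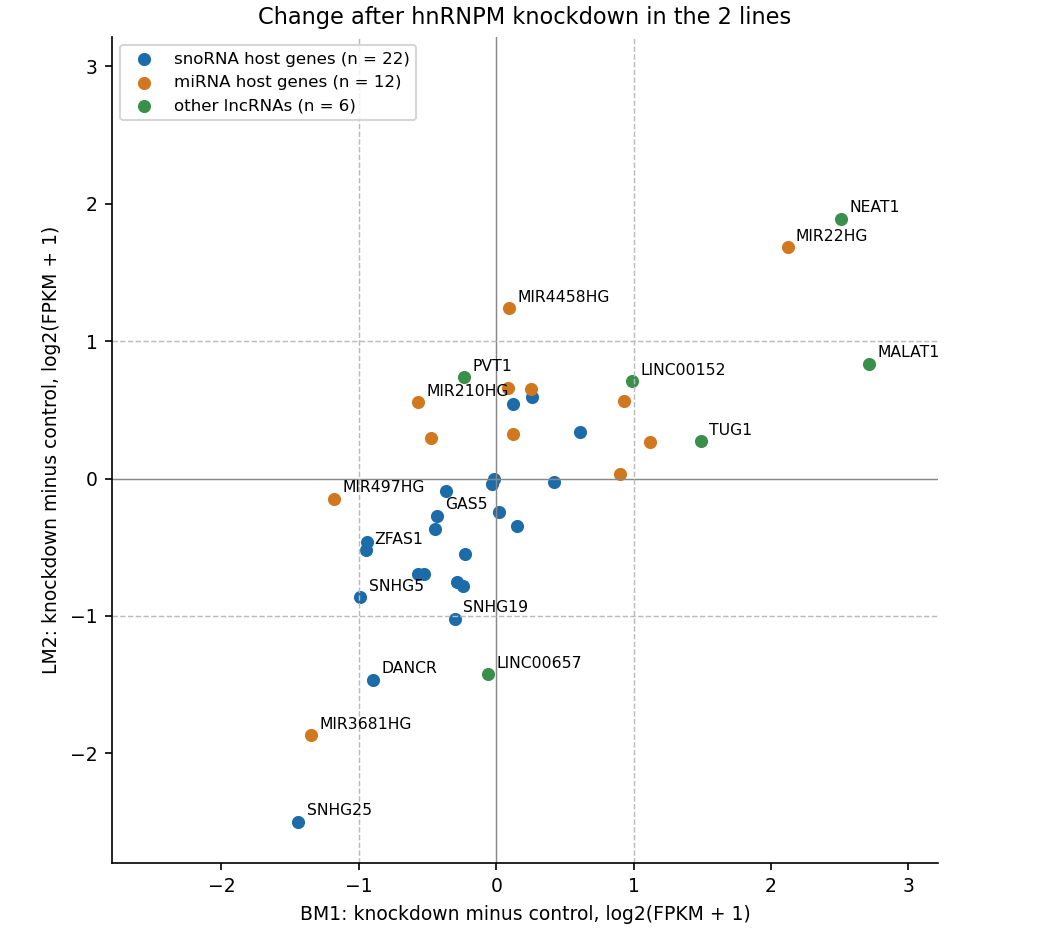
Knockdown minus control on the log2(FPKM + 1) scale in BM1 (horizontal) and LM2 (vertical) for the 40 genes tested, coloured by class; dashed lines mark 2-fold. NEAT1 (2.51 and 1.89) and MIR22HG (2.12 and 1.68) lie at the upper right, SNHG25 (-1.44 and -2.497) and MIR3681HG (-1.35 and -1.87) at the lower left, and most snoRNA host genes at the lower left of 0.

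Within the lines, where there is 1 library an arm and no test, the share of these genes with an at least 2-fold difference was nearer that of all genes in BM1 than in LM2. In BM1, 5 of 40 were at least 2-fold higher (MALAT1, NEAT1, MIR22HG, TUG1 and MIR137HG; 12.5%, against 10.1% of all genes) and 3 lower (SNHG25, MIR3681HG and MIR497HG; 7.5%, against 6.2%). In LM2, 3 were at least 2-fold higher (NEAT1, MIR22HG and MIR4458HG; 7.5%, against 3.83%) and 5 lower (SNHG25, MIR3681HG, DANCR, LINC00657 and SNHG19; 12.5%, against 4.24%). NEAT1 and MIR22HG were on the higher side and SNHG25 and MIR3681HG on the lower side in both lines. Only 6 of 40 genes went in opposite directions in the lines (15%, against 30.9% of all genes).

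The second question was how the lines differed from each other. Of 40 genes, 3 differed between LM2 and BM1 over both treatments (7.5%, against 4.35% of all genes), and all 3 were lower in LM2 (over all genes, 2.04% were lower and 2.31% higher). They were SNHG11, MIR503HG and SNHG16. Without adjustment 13 of 40 had a p under 0.05, against 22.4% of all genes. Without a term for the treatment 0 of the 40 passed, with all 4 libraries or with any 1 left out. Between the controls alone, 4 of 40 were at least 2-fold higher in LM2 (10%, against 6.98% of all genes) and 3 lower (7.5%, against 5.26%). Between the knockdowns, 4 were higher (10%, against 4.41%) and 6 lower (15%, against 4.63%).

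SNHG11 (chr20:37075221-37079564, plus strand) was at 5.82 FPKM in control and 4.29 in depleted BM1 cells, and 1.71 in control and 1.54 in depleted LM2 cells. Both LM2 libraries were below 2 FPKM and both BM1 libraries above 4 (log2 difference -1.19 ± 0.25 SE, limma adjusted p = 0.0388). Its neighbour SNHG17, on the other strand and 11224 bases away, did not follow it, at 16.2 FPKM in control and 13.7 in depleted BM1 cells, and 17.6 in control and 11.7 in depleted LM2 cells.

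SNHG16 (chr17:74553848-74561430, plus strand), a host of box C/D snoRNAs known from work on bladder and other cancers, was at 19.8 FPKM in control and 19.4 in depleted BM1 cells, and 8.84 in control and 8.58 in depleted LM2 cells. Its values separated by line and hardly by treatment, with -1.08 ± 0.25 (log2, SE; limma adjusted p = 0.0492) between lines and -0.03 for the knockdown. MIR503HG (chrX:133677367-133680662, minus strand) had the values given above, with a difference of -1.23 ± 0.28 (log2, SE; limma adjusted p = 0.048). The gap between lines was wider in the controls (-1.61) than in the knockdowns (-0.85).

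More snoRNA host genes lay on the low side in LM2 without passing. In 7 of 22 both LM2 libraries were below both BM1 libraries (31.8%, against 21.6% of all genes), and in 1, SNHG18, both were above (4.55%, against 19.4%). SNHG4 and SNHG9 were close to the threshold, with differences of -1.07 and -0.94 (limma adjusted p = 0.0586 and 0.0741). SNHG9 was at 15.9 FPKM in control and 15.7 in depleted BM1 cells, and 7.75 in control and 7.74 in depleted LM2 cells, nearly the same in control and depleted cells of a line. The median of the class between lines was -0.22, at -0.15 in the controls alone and -0.25 in the knockdowns alone. It was 0.14 in a fit without the LM2 knockdown library, which also has no term for the treatment and sets the LM2 control against both BM1 libraries. In SNHG25 the line difference was in the knockdowns (-1.24) and not in the controls (-0.19).

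The miRNA host genes tested had a median difference between lines of 0.42 (log2), against -0.009 over all genes. It was 0.37 in the controls alone and 0.40 in the knockdowns alone. With a library left out, in fits with no term for the treatment, it ran from 0.07 to 0.59. By the order of the libraries the class was near the shares of all genes in both directions. In 3 of 12 both LM2 libraries were above both BM1 libraries (MIRLET7BHG, MIR222HG and MIR497HG; 25%, against 19.4% of all genes), and in 2 both were below (MIR503HG and MIR762HG; 16.7%, against 21.6%). MIR222HG and MIRLET7BHG differed by 1.05 and 1.05 (log2; limma adjusted p = 0.0827 and 0.0608), and neither passed. For MIR222HG the difference was 1.48 in the controls and 0.62 in the knockdowns. Among the other lncRNAs, MALAT1, TUG1 and LINC00657 were higher in LM2 than in BM1 in the controls (0.87, 1.19 and 1.098) and lower in the knockdowns (-1.004, -0.03 and -0.27). EEF2, the translocation factor of the ribosome, was the 1 of 19 oligopyrimidine genes past the test between lines, where 4.35% of all genes passed. It was at 294 FPKM in control and 287 in depleted BM1 cells, and 720 in control and 595 in depleted LM2 cells (limma adjusted p = 0.0407). In the lists of snoRNA proteins, decay factors, miRNA processing genes, nuclear body proteins and LINC00657 partners, 0 passed between lines (limma; 3, 1, 2, 1 and 1 had an unadjusted p under 0.05).

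**Figure D4:**
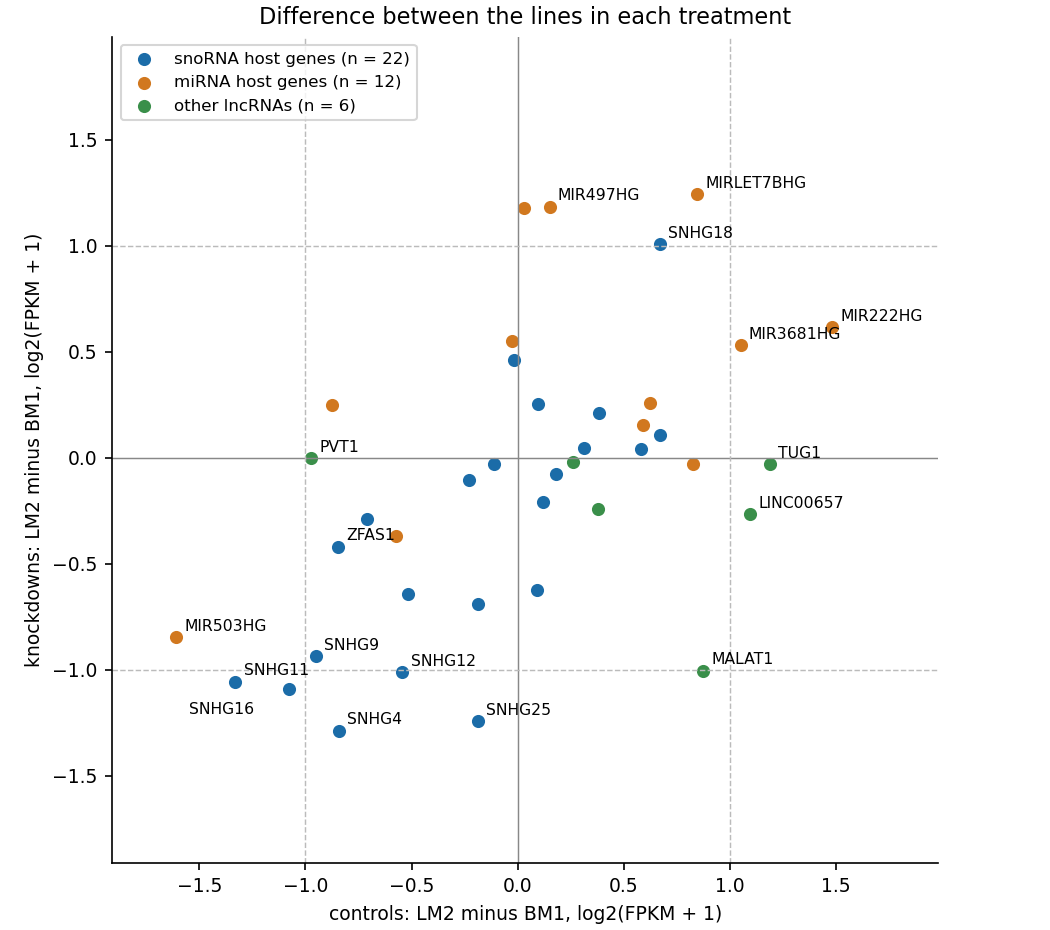
LM2 minus BM1 on the log2(FPKM + 1) scale in the controls (horizontal) and in the knockdowns (vertical) for the 40 genes tested, coloured by class; dashed lines mark 2-fold. SNHG11, SNHG16 and MIR503HG lie at the lower left, and TUG1, LINC00657 and MALAT1 lie right of 0 and below it.

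Structure differed between the classes. The longest GENCODE 29 transcript had a median of 1748.5 bases and 3 exons in the 22 snoRNA hosts, 2626 bases and 2 exons in 11 of the 12 miRNA hosts, and 7490.5 bases and 1.5 exons in the 6 other lncRNAs, against 3229 bases and 7 exons over all genes tested. Median GC content was 49.2%, 48.4% and 42.5%, against 48.3%. Median levels were 13.0, 4.78 and 25.4 FPKM, against 9.15. Of the 24 snoRNA hosts, 14 overlap another gene in the table, 12 of them on the opposite strand and 3 (SNHG3, SNHG4 and SNHG20) on the same strand. With those 3 left out, the median of the tested snoRNA hosts for the knockdown was still -0.40. SNHG3 shares its strand with RCC1, which was at 75.7 FPKM in control and 30.7 in depleted BM1 cells, and 36.8 in control and 25.5 in depleted LM2 cells, also lower in the knockdown of both lines.

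The table also has entries for small RNAs inside these genes. On the same strand there were 20, of 65 to 275 bases, in 14 host genes, and 12 of them had a mean of at least 1 FPKM. Their means ran from 0.052 to 13.6 FPKM with a median of 1.48, far below most hosts. The 2 with the highest means, SNORD104 and MIR762, were above their hosts SNHG25 (mean 6.10 FPKM) and MIR762HG (1.11). SNORD104, inside SNHG25, was at 20.5 FPKM in control and 12.01 in depleted BM1 cells, and 13.2 in control and 8.78 in depleted LM2 cells, lower in the knockdown of both lines like its host. MIR762 was at 4.32 FPKM in control and 2.22 in depleted BM1 cells, and 6.62 in control and 4.12 in depleted LM2 cells. It was lower in the knockdown of both lines, unlike its host MIR762HG, which was higher in both (log2 differences 0.12 in BM1 and 0.32 in LM2). SNORD78, inside GAS5, was at 2.12 FPKM in control and 3.46 in depleted BM1 cells, and 5.58 in control and 4.15 in depleted LM2 cells, higher after depletion in BM1 and lower in LM2. Of the 20, 9 were lower in the knockdown of both lines and 5 higher in both. RNAs of this length are mostly lost in libraries of polyadenylated RNA, so reads there may come from the host RNA, which cannot be told apart in this table.

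The 15 genes below a mean of 1 FPKM comprised 12 of the 24 miRNA hosts, SNHG20, SNHG22 and H19. Their means ran from 0.0803 FPKM (MIR34AHG, the host of the p53 target miR-34a) to 0.939 (MIR181A2HG). MIR17HG, the host of the miR-17 to miR-92 cluster, was at 0.6201 FPKM in control and 0.677 in depleted BM1 cells, and 0.793 in control and 0.445 in depleted LM2 cells. MIR99AHG was at 0.831 FPKM in control and 1.67 in depleted BM1 cells, and 0.0508 in control and 0.253 in depleted LM2 cells, so the low values were those of LM2. MIR193BHG was at 0.183 FPKM in control and 0.1003 in depleted BM1 cells, and 0.304 in control and 1.52 in depleted LM2 cells, so only the last library was above 1 FPKM. At these levels a difference between libraries was not tested.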

How the data were processed

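RNA sequencing libraries of polyadenylated RNA from 4 cultures were analysed. The authors deposited 1 table of FPKM values per gene, with 1 column per library; per the submitters' processing notes, STAR 2.5.3a, Cuffdiff 2.2.1 and GRCh37 were used. Replicates were not pooled in the table, per the file headers. Of 20369 entries, 40 with 3 repeated gene IDs were left out. Coordinates of genes are printed as deposited. GENCODE 29 and RefSeq sequences are on GRCh38 (183 of 19671 matched IDs lie at the same position). GENCODE genes were matched to the table by gene ID and promoters by gene name. GENCODE small RNA genes and RefSeq miRNAs were placed inside matched genes by their GRCh38 positions.

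Depth was inferred from steps in 1624 genes with low values: 36.2% to 43.3% of products of FPKM and length were within 0.02 of a whole number, too few for a count test. The 13928 genes whose mean reached 1 FPKM were fitted on log2(FPKM + 1) with limma 3.58.1 (R 4.3.3), with terms for line and treatment and 1 residual degree of freedom. P-values were two-sided and adjusted over all genes tested (Benjamini-Hochberg, threshold 0.05). Fold changes on this scale understate those of low genes. The line term pairs libraries of the same cell line (r = 0.545 across genes between their deviations from the group means). An exact permutation within 2 pairs cannot give a two-sided p below 0.5. Nothing says that lines or cultures were repeated, so p-values do not measure a spread between repeated cultures. The residual of a gene is how unequally its 2 lines responded, and limma draws it towards a value shared by all genes. The SE was thus 0.2506 in SNHG16, whose lines responded almost alike, and 0.405 in MALAT1, whose lines responded unequally. Within a line, a fixed 2-fold rule was used. Copies were compared with blastn 2.17.0. The fit was tested on simulated data. Alternatives were other pseudocounts, scalings, filters and fits, and each library left out.

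The genes and lists were chosen with earlier results of these data known. Named were all explicit names, all genes past the threshold, the 8 largest differences in each direction of each contrast, genes past 2-fold in a line, the 5 most abundant genes, the 3 with the largest difference between lines, and from each other list the genes past the threshold and the 2 with the largest change; remaining genes named were chosen after their values were seen.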

Additional observations from a re-analysis of the deposited data

Results flagged for a closer look

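In 6 of the 40 genes tested the knockdown library was above its control in one line and below it in the other. The difference between the lines was not tested, since each arm has 1 library. On the log2(FPKM + 1) scale, MIR210HG differed by -0.57 in BM1 and 0.56 in LM2, at 2.06 FPKM in control and 1.06 in depleted BM1 cells, and 0.668 in control and 1.45 in depleted LM2 cells. MIR503HG differed by -0.47 in BM1 and 0.29 in LM2. PVT1 differed by -0.23 and 0.74, which came from controls of 26.3 and 12.9 FPKM. Among snoRNA host genes, SNHG1 differed by 0.15 in BM1 and -0.35 in LM2, at 73.9 FPKM in control and 82.4 in depleted BM1 cells, and 64.8 in control and 50.6 in depleted LM2 cells. SNHG4 differed by 0.42 and -0.02. SNHG10 differed by 0.02 and -0.24, at 4.85 FPKM in control and 4.92 in depleted BM1 cells, and 5.62 in control and 4.61 in depleted LM2 cells.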

How the results depend on the processing

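The 6 knockdown calls stayed 6 with size factors and with a mean FPKM of at least 5, became 4 with a pseudocount of 0.5 and 8 with an intensity trend, and became 0 with a pseudocount of 0.1, quantile normalization, equal sums without mitochondrial genes, no filter, and the GC and length trend removed (chosen after seeing the data). The fit without the line term as a replicate block also gave 0, and leaving out each library gave 0 to 0. At an unadjusted p under 0.05, 6 to 17 members passed in these settings. The 3 calls between lines stayed 3 with a mean of at least 5 and with the trend, became 1 with a pseudocount of 0.5 and with size factors, and 0 in the other settings named, without the replicate block and without any library (0 to 0). Directions of the 6 genes held in all 14 alternatives. Genes past 1.5-fold numbered 16 in BM1 and 19 in LM2.

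Medians of the 40 genes were near 0 and not stable. For the knockdown in BM1 (-0.04) they were -0.08 with size factors and quantile normalization, 0.07 with equal sums, -0.02 without a filter, -0.23 with a mean of at least 5 and 0.05 with GC and length removed. In LM2 (-0.03) they were 0.01, 0.02, 0.01, 0.01, -0.31 and -0.07 in that order. Over both lines (-0.06) they were -0.04 with quantile normalization, 0.01 with equal sums, -0.01 without a filter, -0.23 with a mean of at least 5, -0.02 with GC and length removed, and -0.32 to 0.06 with a library left out (0.03 without the LM2 knockdown). Between lines (0.06) they were -0.10, -0.07 and -0.05 without the LM2 control, BM1 control and BM1 knockdown. The cause was not tested.

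Fits with a library left out have no term for the other factor, so a move in them is not that of the library alone. With them directions reversed for PVT1 (knockdown, -0.23 without the LM2 control, range -0.23 to 0.74) and, between lines, for MIR3681HG without the LM2 control (-0.14 to 1.73), for MIR4435-2HG (-0.022 to 0.91) and TUG1 (-0.17 to 1.32) without the BM1 control, for SNHG25 without the BM1 control (0.0047) or the LM2 knockdown (0.53; range -1.96 to 0.53), and for MIR4458HG (-0.017 to 1.22) and the snoRNA host median (-0.47 to 0.14) without the LM2 knockdown. DICER1, EEF2 and the 2 calls among LINC00657 partners were lost (0) with a pseudocount of 0.1, quantile normalization, equal sums, no filter, no replicate block, GC and length removed, and each library left out (0 to 0); EEF2 was also lost with a pseudocount of 0.5 and the partners with a mean of at least 5. The oligopyrimidine list gained 1 knockdown call with a mean of at least 5 and with the trend. In the library with the lowest value SNHG25 rests on about 6 fragments.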
